A study of Mus musculus with 2 samples.

Results

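The actins, the conventional myosins, the proteins that sit along the actin filament and the factors that remodel or regulate it were compared between PDLIM2 knockdown and control lung carcinoma cells. The group was defined by gene symbol in the annotation of the array: cytoskeletal and muscle actins, myosin heavy chains (Myh), myosin light chains (Myl), tropomyosins (Tpm), calponins (Cnn), transgelins (Tagln) and subunits of the Arp2/3 complex (Arpc), together with named regulators such as Rhoa, Rock1, Cfl1, Srf and Myocd. It held 65 of the 19505 genes with a symbol. Mrtfa, the current symbol of Mkl1, was included, and Rock2, Actg1 and Arpc3 were not analysed here.

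Both cell lines were Lewis lung carcinoma (LLC) cells, a mouse lung cancer line of C57BL/6 origin. The shPDLIM2 LLC line had received, by viral infection in the presence of polybrene, 1 short hairpin RNA directed against Pdlim2, and the shEmpty LLC line was its control virus counterpart. Both were stable lines selected with puromycin, so an effect of this particular hairpin or of the selection of either line cannot be told apart from that of the lost Pdlim2. Total RNA of each line was hybridised to 1 Clariom S mouse array, which leaves no replicate and allows no test.

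Non-muscle cells contract with β- and γ-actin filaments and with non-muscle myosin II, a hexamer of a heavy chain pair with regulatory and essential light chains. Muscle cells use separate genes for most of the same parts, and smooth muscle and striated muscle each have their own actins, heavy chains and light chains. Contraction is switched on through the small GTPase RhoA and its kinases, and unpolymerised actin holds the coactivator MRTF-A away from serum response factor (SRF), which itself drives many actin and myosin genes. PDLIM2 belongs to the PDZ-LIM proteins, which are known to bind actin-associated proteins.

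SRF recognises a short DNA element, the CArG box (CC, then 6 bases that are A or T, then GG), which is the same class of sequence on both strands. It was looked for in the RefSeq promoter windows of mouse build GRCm38.p6, which run from 250 bases before to 50 bases after each gene's start, because it is the best known sequence shared by contractile genes. A window was found for 58 of the 65 genes, and 11 of them (19.0%) held a box, against 266 of 15691 windows (1.7%) of all genes. The share was 30.4% among muscle forms (7 of 23 windows) and 14.8% among non-muscle forms (4 of 27). None of the 8 windows of genes classed as used in both, or in neither, held one. Myl6 was counted with the non-muscle forms although smooth muscle uses it too. The boxes lay in Acta1, Actc1, Myh4, Myh13, Myl3, Myl7 and Myl9 of the muscle forms and in Arpc4, Cnn2, Myl6 and Srf of the non-muscle forms. A box is a match of letters, not a measured binding site. Only exact matches within these windows were counted. A gene not named here may thus have had no window, or may carry a box or a variant of it elsewhere. The stretches below show 3 muscle promoters whose genes were dim or at the array background in LLC cells. They also show 3 non-muscle promoters whose genes were well above that background. Boxes are in capitals, with 12 bases on either side, 5′ to 3′ on the strand of the gene.
Acta1, chr8:123894827-123894860, minus strand: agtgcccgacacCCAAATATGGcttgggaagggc
Actc1, chr2:114052901-114052934, minus strand: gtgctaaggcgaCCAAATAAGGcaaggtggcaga
Myl9, chr2:156775291-156775324, plus strand: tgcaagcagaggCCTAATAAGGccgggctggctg
Cnn2, chr10:79988532-79988565, plus strand: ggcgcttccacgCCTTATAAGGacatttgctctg
Myl6, chr10:128493038-128493071, minus strand: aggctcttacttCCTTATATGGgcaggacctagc
Srf, chr17:46556203-46556256, minus strand: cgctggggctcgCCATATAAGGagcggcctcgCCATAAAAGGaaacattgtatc
Srf carried 2 boxes 10 bases apart in its own promoter.

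Values are log2 signals as deposited, given for shEmpty first and shPDLIM2 second, and each difference is shPDLIM2 minus shEmpty on the log2 scale, so that -1 is a 2-fold lower and 1 a 2-fold higher signal. The targeted gene Pdlim2 had signals of 10.04 on the shEmpty and 8.33 on the shPDLIM2 array, 3.27-fold lower in the knockdown line. The background of an array was set at the 95th percentile of the signals of 1448 odorant, vomeronasal and taste receptor genes, 5.12 for shEmpty and 5.26 for shPDLIM2. The middle 95% of the differences of those receptor genes ran from -0.79 to 1.01. Among 48 genes with 2 probe sets, the spread of a single probe set's difference was 0.35. Every gene of the contractile group was read by 1 probe set, and 39 of the 65 (60.0%) differed by more than 0.35 in size, against 42.3% of all genes. This spread is technical and does not measure how cultures of 1 line vary.

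Most measured non-muscle actin, myosin and thin filament genes had slightly to moderately lower signals in shPDLIM2 LLC cells, led by the calponins Cnn3 and Cnn2, and caldesmon (Cald1), used in muscle and non-muscle cells, was nearly 2-fold lower, while most muscle forms had no signal above background on either array. Of the 65 genes, 36 (55.4%) had a lower and 28 a higher signal in shPDLIM2 cells, and Myh3 was equal. Lower signals were found for 49.0% of all genes and for 54.9% of all genes above background on at least 1 array. The median difference was -0.10, against 0.01 over all genes. Signals at least 2-fold lower were found for 4 genes (6.15%), namely Cnn3, Cnn2, Myh11 and Myh8, where 2.01% of all genes passed that fold. Signals at least 2-fold higher were found for 3 genes (4.62%), namely Myh15, Myh2 and Myh6, against 1.74% of all genes. With a 1.5-fold limit, 10 genes (15.4%) were lower, against 10.0% of all genes, and 7 (10.8%) were higher, against 9.78%. Of the 7 genes past 2-fold, only Cnn3 and Cnn2 were above background on both arrays, and each of the other 5 was a muscle myosin heavy chain near or below background. Among the 40 contractile genes above background on both arrays, 5.0% were at least 2-fold lower, against 2.78% of all such genes. In the same set 0 were at least 2-fold higher, against 1.11%.

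**Figure D1:**
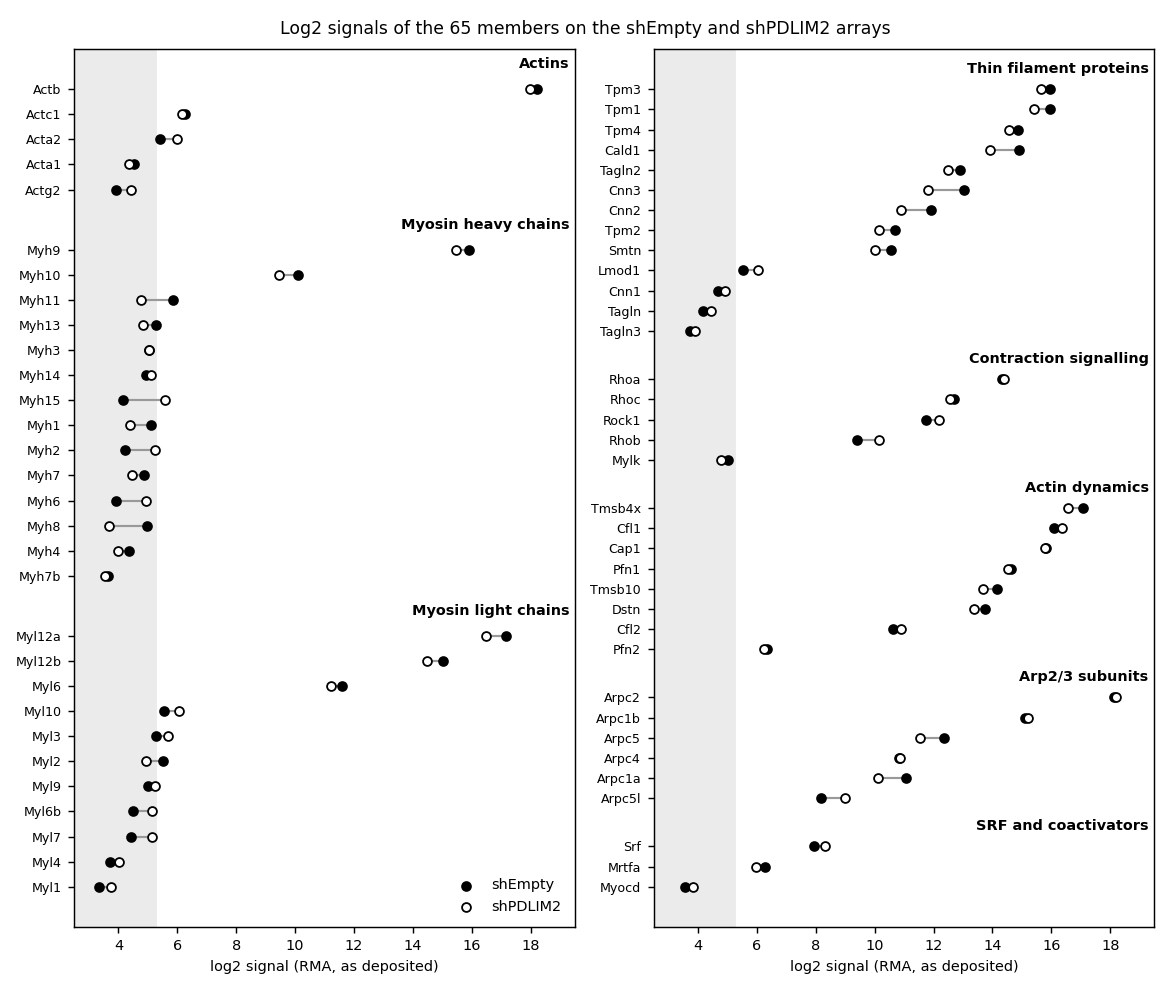
Log2 signal of each of the 65 genes on the shEmpty and the shPDLIM2 array, grouped by role, with filled points for shEmpty, open points for shPDLIM2 and a line joining the 2 values of a gene. The grey area ends at 5.26, the background of the shPDLIM2 array; most muscle forms lie within it, and the non-muscle forms reach up to 18.22 for Actb.

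Muscle and non-muscle forms were set apart by textbook knowledge of where each gene is used. The 27 muscle forms comprised 15 higher, 11 lower and 1 equal gene, with a median difference of 0.24. Only 6 of them were above background on both arrays, 4 on 1 array and 17 on neither, so that most of these differences are between signals that cannot be told from those of receptor genes. The 30 non-muscle forms comprised 11 higher and 19 lower genes, with a median of -0.27, and 28 of them were above background on both arrays. The lower share was thus 63.3%, against 54.9% of all genes above background on at least 1 array. Within the muscle forms the 9 smooth muscle genes had a median of 0.26 (7 higher, 2 lower) and the 18 striated muscle genes a median of -0.04 (8 higher, 9 lower, 1 equal). The 8 genes that muscle and non-muscle cells both use, or that belong to neither, had 2 higher and 6 lower members and a median of -0.26. The smooth and striated medians changed sign, to -0.035 and 0.095, when genes at background on both arrays were left out. No test between the forms was made, because genes of 1 pair of arrays are not replicates.

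Of the 12 non-muscle genes for actin, myosin and thin filament proteins, 10 were lower. Their median was -0.43, and the 2 higher ones, Myh14 and Myl6b, were at background on both arrays. The 22 regulators of every form, from RhoA signalling to the Arp2/3 complex, were split evenly into 11 higher and 11 lower, with a median of -0.02, and none passed 2-fold. Bright genes as a whole leaned the same way on these arrays: 54.8% of the 2878 genes with a mean signal of at least 10 were lower in shPDLIM2 cells, with a median of -0.06. Of the 29 contractile genes above that signal, 22 were lower, 7 were higher and the median was -0.39. In this bright range 6 contractile genes (20.7%) were lower by at least 1.5-fold, against 12.6% of all genes, and 0 were higher by that fold, against 6.64% of all genes. The limit of 10 was set after the values had been seen.

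**Figure D2:**
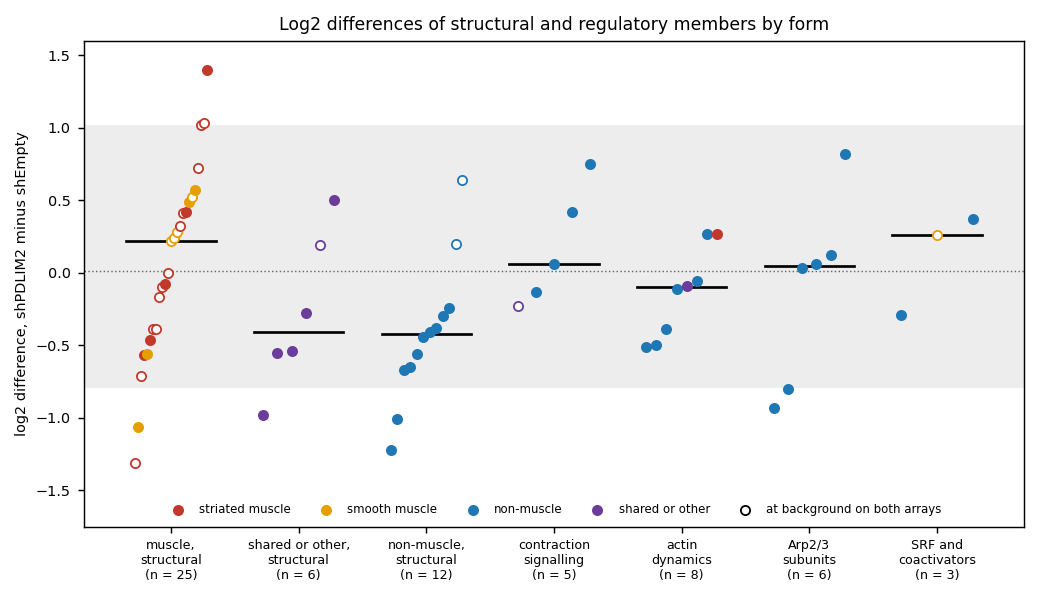
Log2 difference, shPDLIM2 minus shEmpty, of each gene, with actins, myosins and thin filament genes (structural) split by form and the regulators by role, coloured by form; open points are genes at background on both arrays, black bars are medians, the dotted line is the median of all genes and the grey band covers -0.79 to 1.01, the middle 95% of receptor genes. The structural median lies at -0.43 for the 12 non-muscle genes and at 0.22 for the 25 muscle genes, where many points are open.

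The actin genes differed in sign, and the muscle isoforms were dim or at background. The cytoskeletal β-actin gene Actb, which the study used as its RT-qPCR reference, had signals of 18.22 on the shEmpty and 17.98 on the shPDLIM2 array, 1.18-fold lower in the knockdown. Acta2, the smooth muscle α-actin also made by contractile fibroblasts, had 5.41 and 5.98, a difference of 0.57 just above background. Actc1, the cardiac α-actin, was above background on both arrays with 6.25 and 6.17, a difference of -0.08. The skeletal α-actin Acta1 and the enteric smooth muscle actin Actg2, with differences of -0.17 and 0.52, were at background on both arrays. The coding sequences of actins are nearly alike, so signals of dim actin genes next to a very bright Actb may hold RNA of the other isoforms, which was not tested.

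Signals of non-muscle myosin II were lower for heavy chains and for light chains. Myh9, the heavy chain of non-muscle myosin IIA, had signals of 15.89 on the shEmpty and 15.45 on the shPDLIM2 array, 1.36-fold lower. Myh10, the IIB heavy chain, had 10.09 and 9.44, 1.57-fold lower. The third heavy chain gene, Myh14, was at background on both arrays, so the measurable non-muscle heavy chains of these cells were Myh9 and Myh10. Myl12a, a regulatory light chain of the non-muscle motor, had signals of 17.15 and 16.48, a difference of -0.67. Its neighbour and close copy Myl12b had 15.03 and 14.47, a difference of -0.56. The coding sequences of Myl12a and Myl12b are nearly alike, and whether their probe sets read both transcripts was not tested, so their separate values are uncertain. Myl6, the essential light chain shared with smooth muscle and carrier of 1 of the CArG boxes shown above, had 11.59 and 11.21, a difference of -0.38. Myl6b, which lies beside Myl6 in the genome, was at background on both arrays. The motor genes with measurable signals were thus Myh9, Myh10, Myl12a, Myl12b and Myl6, and each was lower in shPDLIM2 cells by 1.30- to 1.59-fold. After quantile normalization Myl12a stood at -0.43 and Myl6 at -0.31. With the lowess trend taken out, Myl6 stood at -0.31 and Myh9 at -0.34. These values of Myl6 and Myh9 were within the probe set spread of 0.35. Each gene stayed lower under both settings, and Myh10, Myl12a and Myl12b stayed beyond that spread. As deposited, every one of these differences lay within -0.79 to 1.01, the middle 95% of receptor genes.

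Muscle myosin heavy chains had differences of both signs, in part larger than 2-fold, but between signals near or at background that allow a bound at most. Myh15, a sarcomeric heavy chain, had 4.17 on the shEmpty and 5.57 on the shPDLIM2 array, at least 1.37-fold higher when the shEmpty signal is set to background. Myh11, the smooth muscle heavy chain, had 5.84 and 4.78, at least 1.5-fold lower by the same reckoning. Myh13, the extraocular heavy chain, had 5.29 and 4.83, a bound of at least 1.02-fold lower. These 3 genes were above background on 1 array only. Myh8, the perinatal skeletal heavy chain, had 4.98 and 3.67, a difference of -1.31 with both values at background. Myh2, a fast skeletal heavy chain, had 4.21 and 5.24, a difference of 1.03. Myh6, the α-cardiac heavy chain, had 3.92 and 4.94, a difference of 1.02 and again between values at background. No fold is given for these 3. In the skeletal cluster on chromosome 11, where Myh3, Myh2, Myh1, Myh4, Myh8 and Myh13 follow each other, the differences had both signs, and the cardiac neighbours Myh6 and Myh7 differed by 1.02 and -0.39. Myh1, Myh3, Myh4, Myh7 and Myh7b were also at background on both arrays.

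Light chains of muscle were likewise dim. Myl3, the ventricular and slow muscle essential chain, had signals of 5.26 on the shEmpty and 5.68 on the shPDLIM2 array. Myl2, the ventricular regulatory chain, had 5.52 and 4.95 and was above background on the shEmpty array only, at least 1.2-fold lower in shPDLIM2. Myl10, a less studied regulatory light chain, had 5.56 and 6.06. Myl1, Myl4, Myl7 and the smooth muscle regulatory chain Myl9 were at background on both arrays. Myl3, Myl7 and Myl9 hold a CArG box in the windows searched, and none of them had a signal far above background on either array. Over all 11 light chain genes 7 were higher and 4 lower, the latter being Myl2 and the bright Myl6, Myl12a and Myl12b. Their median was 0.32 and changed sign, to -0.47, when genes at background on both arrays were left out.

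Thin filament proteins held the largest differences among well measured genes. Cnn3, the acidic calponin of non-muscle cells, had signals of 13.05 on the shEmpty and 11.83 on the shPDLIM2 array, 2.33-fold lower. Cnn2, the calponin tied to cell tension and migration, had 11.90 and 10.89, 2.01-fold lower. Cald1, caldesmon, which binds actin and tropomyosin and holds back the myosin motor, had 14.89 and 13.91, 1.97-fold lower. The values of Cnn2 and Cald1, at -1.01 and -0.98, lay just on either side of the 2-fold limit, and Cnn2 fell inside it, at -0.94, once the arrays were quantile normalized or the lowess trend was taken out. Cnn1, the calponin of differentiated smooth muscle, was at background on both arrays, so the lower signals concerned the non-muscle calponins. Tropomyosins, which wind along the filament and govern access of myosin and of cofilin, were lower for all 4 genes. Tpm1 had 15.97 and 15.42, a difference of -0.55. Tpm2 had 10.69 and 10.15, a difference of -0.54. Tpm3 had 15.94 and 15.66 and Tpm4 had 14.86 and 14.56, differences of -0.28 and -0.30, within the spread between probe sets of 1 gene. Tropomyosin genes make several transcripts by alternative splicing, muscle and non-muscle ones in the case of Tpm1, Tpm2 and Tpm3, and a gene-level probe set does not separate them.

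The remaining filament-binding genes divided by signal. Tagln2, the transgelin of non-muscle cells, had 12.90 on the shEmpty and 12.49 on the shPDLIM2 array, a difference of -0.41. Tagln, the smooth muscle transgelin (SM22α), and Tagln3, the neuronal one, were at background on both arrays. Smtn, smoothelin, a protein of contractile smooth muscle that is also made at lower levels elsewhere, had 10.56 and 10.00, a difference of -0.56, and was together with Cfl2 the only muscle form with a signal of 10 or more. Lmod1, the smooth muscle leiomodin that starts new filaments, had 5.54 and 6.03, a difference of 0.49 just above background. Of the 13 thin filament genes 9 were lower, the 4 higher ones being Tagln, Tagln3, Cnn1 and Lmod1, and the median was -0.41.

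**Figure D3:**
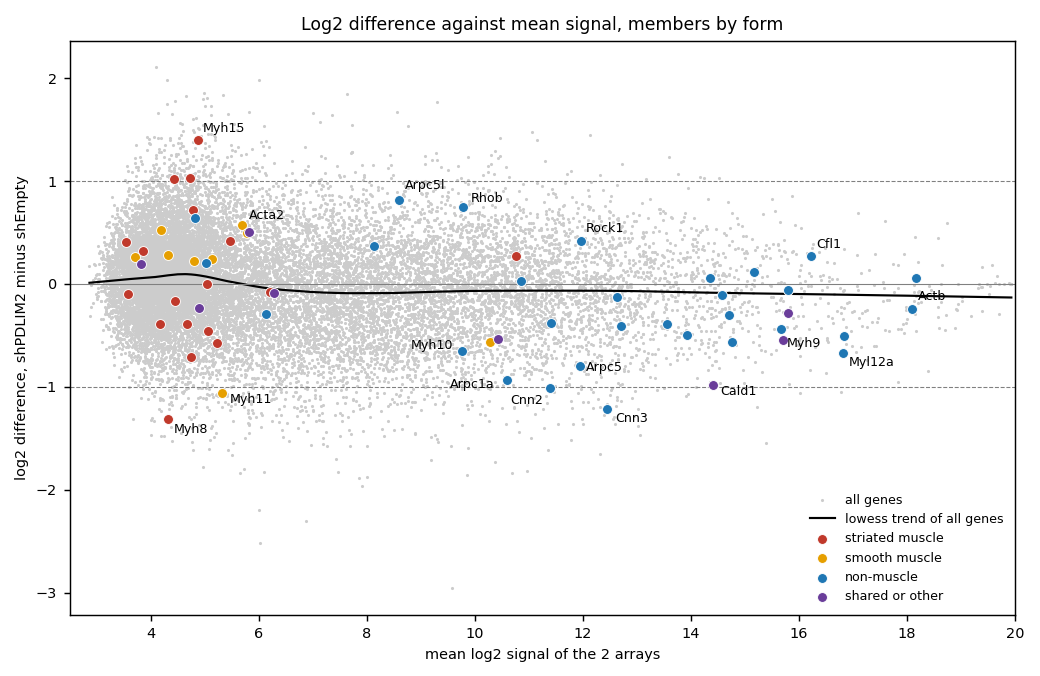
Log2 difference against the mean log2 signal of the 2 arrays for all 19505 genes (grey) and the 65 contractile genes (coloured by form), with the lowess trend of all genes as a black line and the 2-fold limits dashed. Cnn3 at -1.22 and Cald1 at -0.98 lie below the trend at high signal, and Myh15 at 1.40 and Myh8 at -1.31 lie in the dense cloud of dim genes.

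Among the 5 genes of contraction signalling, 3 were higher, 2 were lower and the median was 0.06. Rhob, an inducible and short-lived small GTPase, had signals of 9.40 on the shEmpty and 10.15 on the shPDLIM2 array, 1.68-fold higher. Rock1, the kinase that RhoA activates and that keeps myosin light chains phosphorylated, had 11.75 and 12.17, 1.34-fold higher. Rhoa itself had 14.32 and 14.38 and Rhoc had 12.70 and 12.57, both within the spread of probe sets. Mylk, the myosin light chain kinase, was at background on both arrays. The differences of Rhob and Rock1 thus had the opposite sign to those of the myosin II genes.

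Factors that turn actin over were mostly lower by small amounts. Tmsb4x, thymosin β4, the main protein that keeps actin monomers in reserve, had 17.08 on the shEmpty and 16.57 on the shPDLIM2 array, a difference of -0.51 that shrank to -0.25 after quantile normalization. Tmsb10, thymosin β10, had 14.17 and 13.67, a difference of -0.50. Dstn, destrin, which severs and depolymerises filaments, had 13.75 and 13.36, a difference of -0.39. The closely related cofilins went the other way by less than the spread of probe sets. Cfl1, the non-muscle cofilin, had 16.08 and 16.35, and Cfl2, the muscle cofilin, had 10.62 and 10.89, each a difference of 0.27. Pfn1 and Pfn2, the profilins that hand actin monomers to growing ends, had differences of -0.11 and -0.09, with signals of 14.63 and 14.52 for Pfn1 and of 6.33 and 6.24 for Pfn2. Cap1, which recycles actin monomers, had 15.83 and 15.77, a difference of -0.06 that changed sign to 0.04 when the lowess trend was removed. Of these 8 genes 6 were lower, and their median was -0.10.

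The Arp2/3 complex, which nucleates branched actin networks, had no common direction among its 6 measured subunit genes. Arpc1a, a subunit that links the complex to its activators, had 11.05 on the shEmpty and 10.12 on the shPDLIM2 array, 1.91-fold lower. Its alternative and genomic neighbour Arpc1b had 15.10 and 15.22, a difference of 0.12. Arpc5 had 12.34 and 11.54, 1.74-fold lower, whereas its alternative Arpc5l had 8.19 and 9.01, 1.77-fold higher. Of the 2 pairs of interchangeable subunits, Arpc5 and Arpc5l thus had opposite signs. In the other pair the difference of Arpc1b lay within the spread of probe sets, so only Arpc1a differed by more than it. Arpc2, part of the core, had 18.13 and 18.19, and Arpc4, the other core subunit measured and a carrier of a CArG box at the far end of its window, had 10.83 and 10.86. Signals of paralogs come from different probe sets, so their heights were not set against each other.

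The transcriptional arm of the pathway was dim to moderate and differed by less than 1.5-fold. Srf had 7.95 on the shEmpty and 8.32 on the shPDLIM2 array, 1.29-fold higher. Mrtfa, its actin-sensing coactivator, had 6.27 and 5.98, 1.22-fold lower. Myocd, the coactivator myocardin of smooth and cardiac muscle, was at background on both arrays. Both Cnn2 and Myl6, whose promoters hold CArG boxes, were lower, Arpc4 differed by 0.03 and Srf by 0.37, so the non-muscle genes with a box did not share a direction.

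The genes around this machinery were described from lists of the same pathway, which had been set up with earlier results of these data known. Of 16 measured partners and activators of Arp2/3, 10 were lower, 6 were higher and the median was -0.11. Coro1b, a coronin that removes Arp2/3 from branches, had 10.73 on the shEmpty and 9.54 on the shPDLIM2 array, a difference of -1.19. Abi1, a subunit of the WAVE complex that activates Arp2/3, had 9.82 and 10.89, a difference of 1.07. Coro1c and Nckap1 differed by -0.54 and 0.50. Among 13 capping and severing genes, 8 were lower and 5 higher, and 2 were lower by at least 2-fold, as were 2.01% of all genes. Gsn, gelsolin, which cuts filaments and caps their ends, had 13.22 and 11.91, a difference of -1.31. Capza1, a capping protein subunit, had 12.34 and 11.20, a difference of -1.14. Eps8, a capping and bundling protein, had 11.98 and 10.99, a difference of -0.99, and Scin, scinderin, had 4.64 and 5.47, at least 1.27-fold higher. The median of this list was -0.01, so its lower genes stood beside others with little difference.

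**Figure D4:**
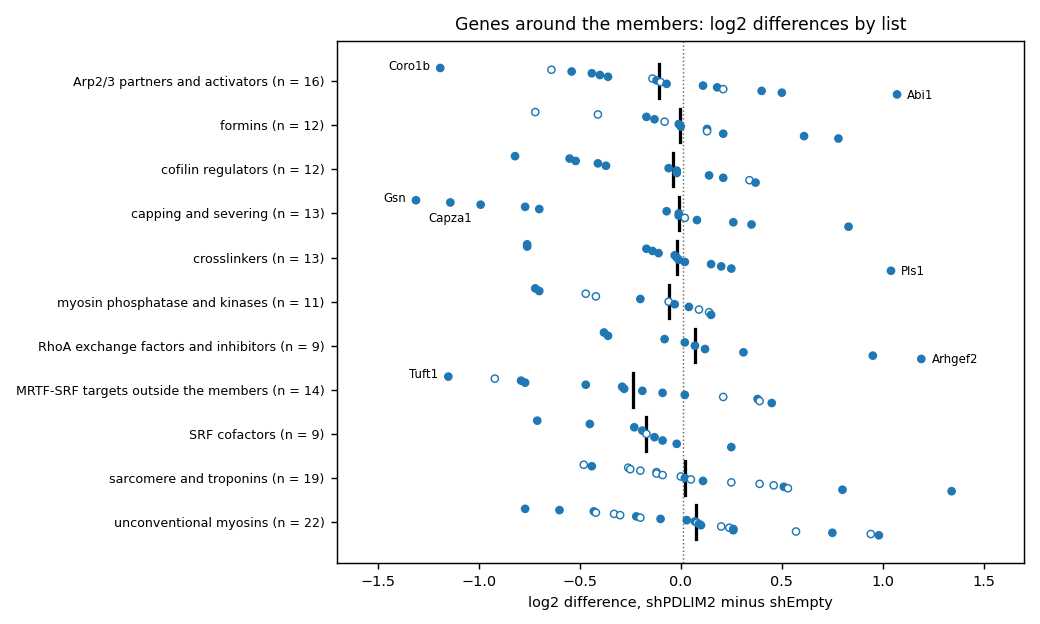
Log2 difference, shPDLIM2 minus shEmpty, of the genes in 11 lists around the contractile group; open points are genes at background on both arrays, black bars are list medians and the dotted line is the median of all genes. Gsn at -1.31 and Coro1b at -1.19 are the lowest points, and no list median lies beyond -0.24 or 0.08.

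Other regulators showed single genes and no common shift. Among 12 formins, which extend unbranched filaments, Fhod1 differed by 0.78, Diaph3 by 0.61, Diaph2 by 0.21 and Fmn1 by -0.17, and the median was -0.01. Of 12 cofilin regulators 8 were lower and 4 higher, with Limk1, the kinase that switches cofilin off, at -0.82, the slingshot phosphatases Ssh3 and Ssh2 at -0.55 and -0.52, and Wdr1 at -0.41. Crosslinkers (5 higher and 8 lower of 13) included Pls1, the epithelial plastin, with 5.35 and 6.39, a difference of 1.04, and Flnc and Palld, both at -0.76, while Pls3 differed by 0.25. Of 11 genes of myosin phosphatase and light chain kinases 7 were lower and 4 higher, with Dapk3 at -0.72, the phosphatase subunits Ppp1r12c and Ppp1r12a at -0.70 and -0.20, and Cit at 0.15. Of 9 RhoA exchange factors and inhibitors 6 were higher and 3 lower. Arhgef2 (GEF-H1), a RhoA activator kept on microtubules, had 10.71 and 11.90, a difference of 1.19, and Arhgef11 differed by 0.95, whereas Arhgef12 and Arhgef1 differed by -0.38 and -0.36. Arhgef2 and Arhgef11 thus had the same sign as Rhob and Rock1.

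Targets of MRTF and SRF outside the contractile group were 9 lower and 5 higher of 14, with a median of -0.24. Lower by at least 1.5-fold, as were 10.0% of all genes, were 4 of them, of which Tgfb1i1 was at background on both arrays. Tuft1 had 9.08 on the shEmpty and 7.93 on the shPDLIM2 array, a difference of -1.15. Vcl, vinculin, which ties actin to adhesions, had 12.62 and 11.83, and Tes, testin, had 13.48 and 12.71, differences of -0.79 and -0.77. Fhl1, above background on the shEmpty array only, had 5.32 and 4.85, at least 1.04-fold lower. Of 9 genes listed as SRF cofactors 8 were lower and 1 higher. The list held Elk1, Elk3, Elk4, Mrtfb, Scai, Phactr1, Phactr2, Phactr3 and Phactr4. Not all of these are coactivators of SRF, so the count does not speak for coactivators alone. Lower signals were found for 49.0% of all genes and for 54.9% of all genes above background on at least 1 array. Only 2 of the 9 (22.2%) differed by more than the probe set spread of 0.35, against 42.3% of all genes. Elk4 stood at -0.45 and Elk1 at 0.25. Phactr2 and Phactr3 were above background on the shEmpty array only, the former with 5.62 and 4.91, at least 1.29-fold lower, and the latter with 5.18 and 4.95 and no bound. Sarcomere and troponin genes (10 higher, 8 lower and 1 equal of 19) included Mylpf, the fast skeletal regulatory light chain, with 4.40 and 5.74, at least 1.54-fold higher, Tnnc1 and Tnnt3 at 0.80 and 0.51, and Mybpc1 at -0.44. Unconventional myosins had 13 higher and 9 lower of 22 genes, and within class I Myo1g and Myo1e were lower, at -0.77 and -0.60. Myo1a and Myo1d were above background on the shPDLIM2 array only, at least 1.13- and 1.34-fold higher there. None of these 11 lists was tested.

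Marker genes of other cell types were read beside the contractile group. The mesenchymal intermediate filament gene Vim had 19.56 on the shEmpty and 19.46 on the shPDLIM2 array. The epithelial Cdh1 and Epcam were at background on both arrays, whereas 4 keratin genes of the same list were above it on at least 1. The 6 epithelial markers were all lower, with a median of -0.38. Of all genes 49.0% were lower, and of all genes above background on at least 1 array 54.9%. The count includes Cdh1 at -0.39 and Epcam at -0.08, whose signals were at background. Of the keratins, Krt7 at -0.20 lay within the probe set spread of 0.35 and Krt8 at -0.36 just beyond it. Krt18 had 12.20 and 11.29, a difference of -0.91. Krt8, with 6.95 and 6.59, and Krt7, with 5.77 and 5.57, were like Krt18 above background on both arrays. Krt19, with 5.82 and 4.67, was above it on the shEmpty array only, at least 1.48-fold lower in shPDLIM2. Of the other fibroblast markers Col1a1, Col1a2, Lum and Thy1 were at background on both arrays. Dcn, with 5.06 and 5.82, and Pdgfrb, with 5.01 and 5.55, were above background on the shPDLIM2 array only, at least 1.62- and 1.35-fold higher there. Among 7 smooth muscle markers Des, Cnn1 and Myocd were at background on both arrays. Smtn and Lmod1, given above, and Synpo2, with 5.30 and 5.50, were above it on both, and Myh11 on the shEmpty array only. Among 8 striated muscle markers Myod1, Myf5, Mymk, Nkx2-5, Nppa and Ttn were at background on both arrays. Ckm, with 6.96 and 6.92, was above it on both. Myog, with 5.30 and 4.99, was above it on the shEmpty array only, at least 1.03-fold lower in shPDLIM2. None of the 5 measured lymphocyte markers was above background. Of 5 macrophage markers Cd14 was above it on both arrays and Adgre1 on the shPDLIM2 array, and of 5 endothelial markers Pecam1 was above it on the shPDLIM2 array. The part of the epithelial and fibroblast markers in the contractile differences was not tested.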

How the data were processed

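Total RNA of each LLC line was hybridised to 1 Affymetrix Clariom S mouse array. Signals for each probe set were deposited by the authors on the log2 scale, and the tools listed in the submitters' processing notes are the Transcriptome Analysis Console and RMA. Their versions, the genome build and whether both arrays were normalized together: not given in the sources used here. Arrays have no read depth, and 1 array per line gives no precision estimate, so no p-value was computed.

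Of 22206 probe sets, 19572 had 1 symbol in the platform annotation, 2634 had none and 0 had several; probe sets of 1 gene were averaged. The genes and lists were chosen with earlier results of these data known. Every gene of the contractile group was named, with signals where it was above background on at least 1 array or differed by at least 2-fold, and from each other list up to 4 genes with the largest absolute difference among those above background. Where 1 array was above background, the fold is a bound, taken from the bright signal and whichever is higher on the other array, its background or the gene's own signal. Alternatives were centring, quantile normalization, removal of a lowess trend (fraction 0.3), differences relative to Actb, a filter on background (95th or 99th percentile), a 1.5-fold limit and other assignments of forms. The steps were tested on simulated data. CArG boxes were counted in RefSeq promoters (GRCm38.p6), matched by Entrez gene ID. Actin protein sequences were not used here. The software was Python 3.11.15, numpy 2.4.6, pandas 2.3.3, statsmodels 0.14.6 and matplotlib 3.10.9.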

Additional observations from a re-analysis of the deposited data

How the results depend on the processing

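Of 123 values recomputed for groups of genes and for Pdlim2, 33 shifted and 90 did not. Those that took each probe set on its own could not shift, because every contractile gene had 1. Centring only took 0.01 off every difference, in groups and single genes alike, and so could change little. A median counted as shifted where it changed sign or moved by more than the probe set spread of 0.35 divided by the square root of its number of genes, and a count where it changed by more than 1.5 times. Among 195 recomputed differences of single contractile genes, 1 shifted, that of Cap1, by its sign (-0.06 to 0.04). The median of the 65 genes was -0.03 after quantile normalization, -0.29 with only genes above background and -0.39 with a mean signal of at least 10. With a 1.5-fold limit 10 genes were lower and 7 higher; 1 gene was at least 2-fold higher after quantile normalization, after lowess removal or with the background filter, which left 15 higher genes in all. Quantile normalization gave medians of 0.165 for muscle forms, -0.15 for non-muscle forms (-0.17 after lowess removal) and -0.31 for thin filament genes. The background filter gave 0.095 for muscle and for striated forms, -0.035 for smooth muscle, -0.41 for shared forms, 0.24 for contraction signalling, -0.47 for light chains, -0.55 for thin filament genes and 0.04 for the transcription genes. The smooth muscle, striated and light chain medians thus changed sign once genes at background were left out. Counting shared forms with muscle gave a muscle median of 0.00, and filament and motor genes alone gave -0.43 for non-muscle and -0.41 for shared forms. After quantile normalization and after lowess removal the medians were 0.0612 and 0.0525 for formins, 0.02 and 0.0132 for cofilin regulators, 0.035 and 0.0057 for capping and severing genes and -0.05 and -0.0445 for sarcomere genes; crosslinkers had 0.0075 after quantile normalization. Their medians as deposited lay within 0.05 of 0 and had the other sign. Relative to Actb, 8 contractile genes changed sign (Acta1, Actc1, Pfn2, Cap1, Pfn1, Mylk, Rhoc and Myh7b), which left 37 higher and 27 lower. The Actb, bright-gene and list alternatives were chosen after seeing the data. The cause of these shifts was not tested. No paired analysis was possible because each line had 1 array. With 1 array per line neither culture nor hybridisation error is known, and signals near background limit what the muscle forms can show.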
